A study of Rattus norvegicus with 2 samples.

Results

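The Toll-like receptors of rat bone mesenchymal stem cells (BMSCs), with the co-receptors that hand them bacterial lipopolysaccharide (LPS), were followed by gene name: Tlr1, Tlr2, Tlr3, Tlr4, Tlr5, Tlr6, Tlr7, Tlr9, Cd14 and Ly96. Of these 10 genes, 9 were found in the array files, as 10 sequences among 26419, and Tlr1 matched no sequence by symbol or gene identifier and is not analysed here. The study compared BMSCs given the solvent DMSO with BMSCs given icariin, a flavonol glycoside of Epimedium, on 1 single-dye (Cy3) NimbleGen expression array each. The methods describe adherent early-passage marrow cells of male Sprague–Dawley rats and name no sort by surface marker, a single icariin dose and a single exposure time, whereas the labels of both samples say female. How many animals stand behind an array is not given in the sources used here. With 1 array per condition no difference has a replicate check, so "higher" and "lower" describe the icariin array against the DMSO array and carry no test.

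Toll-like receptors are membrane proteins of innate immunity that recognise molecules shared by many microbes. TLR2 pairs with TLR1 or TLR6 to bind bacterial lipoproteins, TLR4 binds LPS, TLR5 binds flagellin, and TLR3, TLR7 and TLR9 bind nucleic acids inside endosomes. CD14 passes LPS and lipoproteins on to the receptors, and MD-2, the product of Ly96, holds LPS within the TLR4 complex. Most of these receptors signal through the adaptor MYD88 and a cascade of IRAK kinases to NF-kappaB and the MAP kinases, while TLR3 and, in part, TLR4 use the adaptor TRIF. They are best known from macrophages and other myeloid cells, but marrow stromal cells are known to carry some of them.

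The values were intensities after Robust Multichip Average (RMA) normalization, which summarises the probes of a sequence into 1 value, here 5 probes for each of the 10 sequences. Olfactory and vomeronasal receptor genes, 1426 in all, served as a class that these cells are taken not to use. Their 95th percentile, 148 for DMSO and 168 for icariin, is called the silent-gene level. A value under it is no evidence that a transcript was present, and their 99th percentile was 221 and 270. Of 24210 genes, 9260 lay above the silent-gene level on both arrays. Marrow stroma markers, Col1a1 and Thy1 among them, lay above the silent-gene level on both arrays in 15 of 15 cases. These markers were chosen with earlier results of these data known, so the count is no independent check of that level.

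Tlr2 and Cd14 were the members read above the silent-gene level, and both were above it on both arrays. Their promoters are shown here with that of Tlr4, the LPS receptor, whose own signal stayed below that level. RefSeq promoter windows on build GRCr8, 250 bases before to 50 bases after the annotated start, were matched for 9 of the 10 genes, Ly96 being the other. Capitals mark matches to the NF-kappaB consensus in Tlr2 and to the PU.1 core GAGGAA, on either strand, in Cd14 and Tlr4. PU.1 is a transcription factor of myeloid cells.
Tlr2, chr2:171504508-171504807, minus strand: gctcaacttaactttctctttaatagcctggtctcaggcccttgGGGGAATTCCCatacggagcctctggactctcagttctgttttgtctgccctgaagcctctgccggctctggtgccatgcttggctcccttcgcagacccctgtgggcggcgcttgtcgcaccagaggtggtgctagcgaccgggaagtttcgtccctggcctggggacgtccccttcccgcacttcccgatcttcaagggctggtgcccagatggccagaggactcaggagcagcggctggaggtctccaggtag
Cd14, chr18:28611109-28611408, minus strand: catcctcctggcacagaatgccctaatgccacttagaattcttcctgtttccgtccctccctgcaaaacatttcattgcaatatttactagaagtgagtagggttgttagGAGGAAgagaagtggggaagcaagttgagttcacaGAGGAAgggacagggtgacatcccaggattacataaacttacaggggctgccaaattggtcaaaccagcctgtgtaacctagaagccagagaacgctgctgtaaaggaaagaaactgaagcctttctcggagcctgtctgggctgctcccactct
Tlr4, chr5:85160997-85161296, plus strand: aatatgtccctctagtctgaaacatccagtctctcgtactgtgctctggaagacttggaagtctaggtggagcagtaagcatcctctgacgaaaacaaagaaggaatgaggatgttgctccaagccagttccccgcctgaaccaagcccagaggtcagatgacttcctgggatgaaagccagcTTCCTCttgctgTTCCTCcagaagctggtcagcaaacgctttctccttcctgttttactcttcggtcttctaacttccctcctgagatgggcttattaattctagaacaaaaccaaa
In the Tlr2 window, 2 overlapping matches to the NF-kappaB consensus ran from -206 to -197 and from -205 to -196, counted from the start site. That consensus was found in no other of the 9 windows and in 4.18% of all 33469 rat promoter windows of this length. The PU.1 core was present in 6 of the 9 windows, namely those of Tlr3, Tlr4, Tlr6, Tlr7, Tlr9 and Cd14, and in 27.6% of all windows. The Tlr2 window held none. A GC box, GGGCGG, lay in the Tlr2 window alone (33.1% of all windows), an AP-1 site, TGANTCA, in that of Tlr9 (7.33%), and a C/EBP site, TTNNGCAA, in that of Tlr7 (10.6%). Neither an interferon response element nor a cAMP response element, TGACGTCA, occurred in the 9 windows, against 3.92% and 1.83% of all windows. Both strands were searched, and a match of letters does not show that a factor binds.

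Tlr2 was the member that differed most. Its intensity was 270 with DMSO and 676 with icariin, which is 2.51-fold higher or 1.33 on the log2 scale. The icariin value was also well over the 99th percentile of the silent genes, and the DMSO value lay at percentile 99.4 of them. Among the 9 genes measured, Tlr2 alone passed 2-fold upward and none passed it downward, where 6.51% of all genes did so upward and 7.01% downward. A count of 1 in 9 is too small to be set apart from that background. Of the genes above the silent-gene level on the brighter array, which among the 9 are Tlr2 and Cd14, 7.98% passed 2-fold upward and 10.5% downward. For the 9260 genes above it on both arrays these shares were 2.96% and 4.4%. They were 4.17% and 6.64% for the 2785 of these whose mean log2 level lay within 0.5 of that of Tlr2. With a fold of 1.5 the genes that passed upward were Tlr2 and Tlr4, and none passed downward, beside 16.4% and 17.8% of all genes. With a fold of 3 none of the 9 passed, beside 1.47% and 1.62%.

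**Figure D1:**
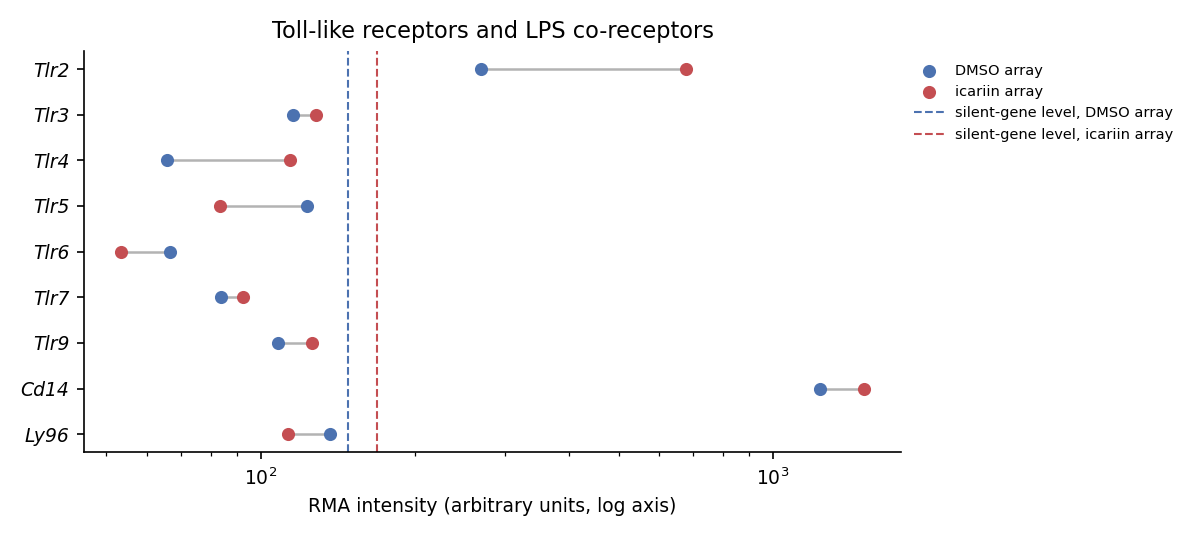
RMA intensity (log axis) of the 9 genes with DMSO (blue) and icariin (red), 1 array each, with the silent-gene level of each array as a dashed line. Tlr2 (270 and 676) and Cd14 (1236 and 1507) lie to the right of both lines, and the other 7 genes lie to the left of both.

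Cd14, the co-receptor that is also a textbook marker of monocytes, read 1236 with DMSO and 1507 with icariin. This is 1.22-fold higher (log2 difference 0.29) and short of 2-fold. Both Cd14 values lay at percentile 100 of the silent genes. Tlr2 and Cd14 differed in the same direction by different amounts, 1.33 and 0.29 on the log2 scale, and with single arrays the gap between these differences could not be tested.

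The receptor complex for LPS was not readable apart from Cd14. Tlr4 read 65.6 with DMSO and 114 with icariin, percentiles 38.2 and 83.5 of the silent genes. The ratio of 1.74 rests on a pair of values that both fall within the range of silent genes. Ly96 read 136 and 113, percentiles 93.0 and 83.2. Both genes therefore lay below the silent-gene level on each array. A low reading does not show that the transcript was missing.

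The partner receptors of TLR2 could not be followed. Tlr6 read 66.5 and 53.4, percentiles 39.8 and 17.2 of the silent genes. Tlr6, Tlr1 and Tlr10 are consecutive protein-coding genes on rat chromosome 14, and Tlr10, a further member of this cluster, read 89.9 and 64.1. Neither Tlr6 nor Tlr10 lay above the silent-gene level on any array. Tlr5, the flagellin receptor, read 123 and 83.5 and had the lowest log2 difference of the 9 genes, -0.56, also under the silent-gene level.

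The receptors of nucleic acids were low on both arrays as well. Tlr3, the receptor of double-stranded RNA, was covered by 2 sequences. The curated sequence of Tlr3 read 102 and 112, and the predicted one read 132 and 148. Their log2 differences, 0.14 and 0.17, lay close to each other although both sequences stayed under the silent-gene level. Tlr7, which binds single-stranded RNA, read 83.7 and 92.4, and Tlr9, which binds unmethylated CpG DNA, read 108 and 126. The log2 differences of Tlr7 and Tlr9 were 0.14 and 0.22. Tlr8, which neighbours Tlr7 on chromosome X and was followed as a pathway gene, read 70.1 and 122.

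Over the 9 genes, 6 had a higher and 3 a lower value on the icariin array, with a median log2 difference of 0.15 beside -0.02 for all genes. The median falls on Tlr3, a gene under the silent-gene level, and becomes 0 once values under 168 are raised to that floor. The 7 genes under the silent-gene level on both arrays ranged from 65.6 to 136 with DMSO and from 53.4 to 129 with icariin, and 4 of them were higher and 3 lower. None of the 7 differed 2-fold, where 4.84% of all genes that dim on both arrays passed 2-fold upward and 2.94% downward.

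**Figure D2:**
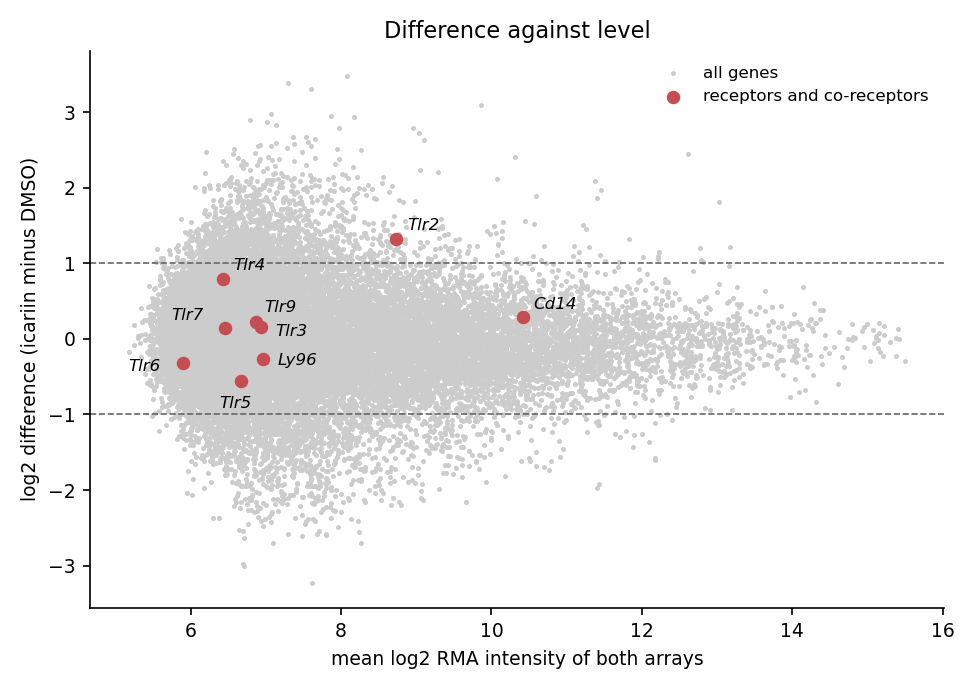
Log2 difference (icariin minus DMSO) against the mean log2 RMA intensity of both arrays for all 24210 genes (grey) and the 9 receptor and co-receptor genes (red), with dashed lines at 2-fold. Tlr2 lies above the upper line at 1.33, Cd14 lies at 0.29 at a higher level, and the other 7 crowd at the dim end.

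Around the receptors, 111 pathway genes in 6 lists were followed, of which 106 were measured. In all, 7 of the 106 passed 2-fold upward, 6 passed it downward and 93 did neither, close to the shares of all genes (6.51% and 7.01%). Their median log2 difference was 0.12. Above the silent-gene level on both arrays were 63 of them, of which 2 passed 2-fold upward and 2 downward. Of all genes above it on both arrays, 2.96% passed upward and 4.4% downward.

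Proteins that deliver ligands to the receptors or carry the receptors to their place held 12 measured genes (median 0.30). None of the 12 differed 2-fold, where 6.51% of all genes did so upward and 7.01% downward. Lbp, the LPS-binding protein that loads CD14, read 4691 and 4890, a log2 difference of 0.06. Cd36, a scavenger receptor that assists TLR2, read 1084 and 2050, which is 1.89-fold higher. Unc93b1, the chaperone that escorts the nucleic acid receptors to endosomes, was 1.77-fold higher (646 and 1146), while its client receptors Tlr3, Tlr7 and Tlr9 stayed under the silent-gene level. Cnpy3, a folding partner of the receptors in the endoplasmic reticulum, was 1.78-fold lower (318 and 179). Its icariin value lay just above the silent-gene level, at percentile 96.0 of the silent genes. Hsp90b1, the chaperone gp96 with which Cnpy3 works, read 6859 and 7726. Cd180 and Ly86, a relative of TLR4 and its MD-2-like partner, stayed under the silent-gene level at 69.8 and 131 and at 108 and 86.6. Tlr11 and Tlr12, family members that in mice bind profilin of protozoa, were under it too.

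Adaptors and proximal kinases contributed 22 measured genes (median 0.02). Of the 22, 4 passed 2-fold upward, 1 downward and 17 in neither direction, beside 6.51% upward and 7.01% downward of all genes. Myd88, the adaptor shared by most of the receptors, read 739 and 687, a log2 difference of -0.10. Syk, a tyrosine kinase of blood cells, was the one gene of this list that differed 2-fold while above the silent-gene level on both arrays, 2.52-fold higher (206 and 519). Pik3ap1, an adaptor linking the receptors to phosphoinositide 3-kinase, read 112 and 326 and was at least 1.94-fold higher. Irak4, the first kinase of the cascade, read 101 and 294, at least 1.74-fold higher, and Peli1, a ubiquitin ligase, 99.5 and 218, at least 1.29-fold. Here "at least" means that the dimmer value lay under the silent-gene level and was raised to 168, a convention rather than a sure lower bound.

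The 1 gene of this list past 2-fold downward was Ticam2, the bridging adaptor between TLR4 and TRIF, at 169 and 82.0. Tbk1, a kinase of the TRIF branch, was also lower but short of 2-fold, at 239 and 125, at least 1.42-fold. The DMSO value of Ticam2 barely passed the floor of 168, so no fold is given for Ticam2. Ticam1, which encodes TRIF itself, matched no sequence. Among the genes above the silent-gene level on both arrays that stayed under 2-fold, Ube2n, a ubiquitin-conjugating enzyme, read 1647 and 1186, Map3k7, the kinase TAK1, 391 and 525, and Ripk1, a kinase on the TRIF branch, 305 and 402.

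Of 17 measured genes of NF-kappaB, p38 and interferon regulatory factors, 1 passed 2-fold upward and 2 downward, with a median of -0.01. The shares over all genes were 6.51% upward and 7.01% downward. Ikbkb, the kinase that releases NF-kappaB, was 2.03-fold higher (456 and 925). Map3k8, the kinase TPL2 downstream of it, was at least 2.47-fold lower (415 and 150). Map2k6, a kinase of p38, was the other lower gene, with both values under the silent-gene level (129 and 55.3). Rela and Nfkb2, subunits of NF-kappaB, were 1.66-fold and 1.86-fold lower, from 1269 to 765 and from 1120 to 603. Map2k3, a further kinase of p38, was 1.67-fold lower (2260 and 1351).

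Negative regulators, which end or dampen the signal, held 21 measured genes (median 0.10). Beside 7.01% of all genes downward and 6.51% upward, 1 of the 21 passed 2-fold downward and none upward. The median of the 15 that lay above the silent-gene level on both arrays had the opposite sign, -0.20. Tollip, which restrains IRAK1, was 2.49-fold lower, at 727 and 292. Nfkbia, the inhibitor of NF-kappaB that NF-kappaB itself induces, was 1.56-fold lower (723 and 462). Bcl3, a nuclear relative of that inhibitor, was 1.79-fold lower (325 and 181), and Zc3h12a, a ribonuclease that degrades cytokine transcripts, 1.75-fold lower (3271 and 1870). Ptpn6, a phosphatase of blood cells, was 1.89-fold higher (155 and 293). Its DMSO value and the icariin value of Bcl3 lay just above the silent-gene level, at percentiles 96.0 and 96.1 of the silent genes.

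The signalling receptors of the interleukin-1 family share the intracellular TIR domain and the adaptor MYD88 with the Toll-like receptors. Of 6 measured genes of this family, 1 passed 2-fold upward and 1 downward (median -0.18), beside 6.51% and 7.01% of all genes. Il18rap, a chain of the interleukin-18 receptor, read 69.1 and 315, at least 1.87-fold higher. Il1r2, the decoy receptor of interleukin-1 and not a signalling one, read 178 and 79.7, at least 1.06-fold lower. Il1r1, the signalling receptor, read 364 and 475 and was the only gene of the 6 above the silent-gene level on both arrays.

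**Figure D3:**
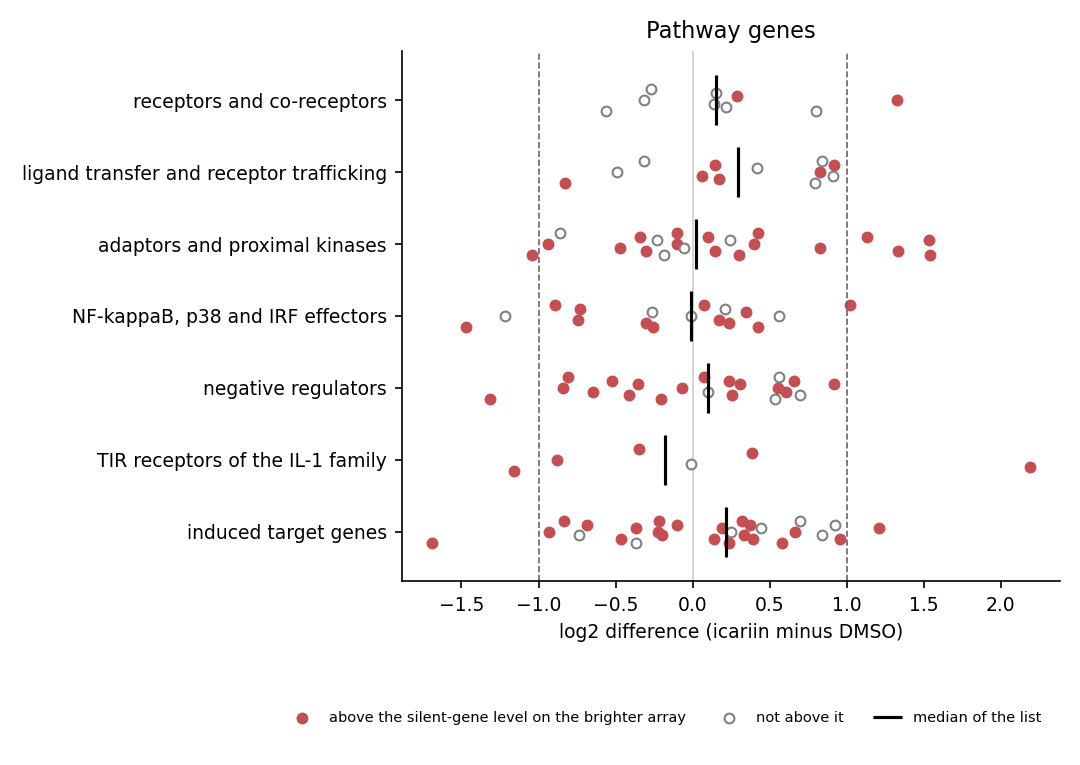
Log2 difference (icariin minus DMSO) of each measured gene in the receptor family and the 6 pathway lists, 1 point per gene, filled where the gene lay above the silent-gene level on the array where it was brighter. Black bars mark list medians, from -0.18 to 0.30, and dashed lines mark 2-fold, which most points do not reach.

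Genes that the receptors are known to induce went both ways. Of 28 measured genes (median 0.22), 1 passed 2-fold upward, 1 downward and 26 in neither direction, beside 6.51% and 7.01% of all genes. Tnf, the early inflammatory cytokine, was 3.24-fold lower (731 and 226). Il6 was at least 1.40-fold higher (102 and 235). Il1b was 1.91-fold lower (924 and 484), and the macrophage chemokine Ccl4 1.78-fold lower (658 and 369). The neutrophil chemokine Cxcl2, by contrast, was 1.94-fold higher (567 and 1099). Cxcl10 (98.7 and 76.6) and Ccl5 (78.3 and 106), transcripts of the TRIF and interferon arm, lay under the silent-gene level. Ifnb1, of the same arm, read 157 and 173, just over that level. No list of this arm was drawn up, so these genes do not stand for it as a whole.

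**Figure D4:**
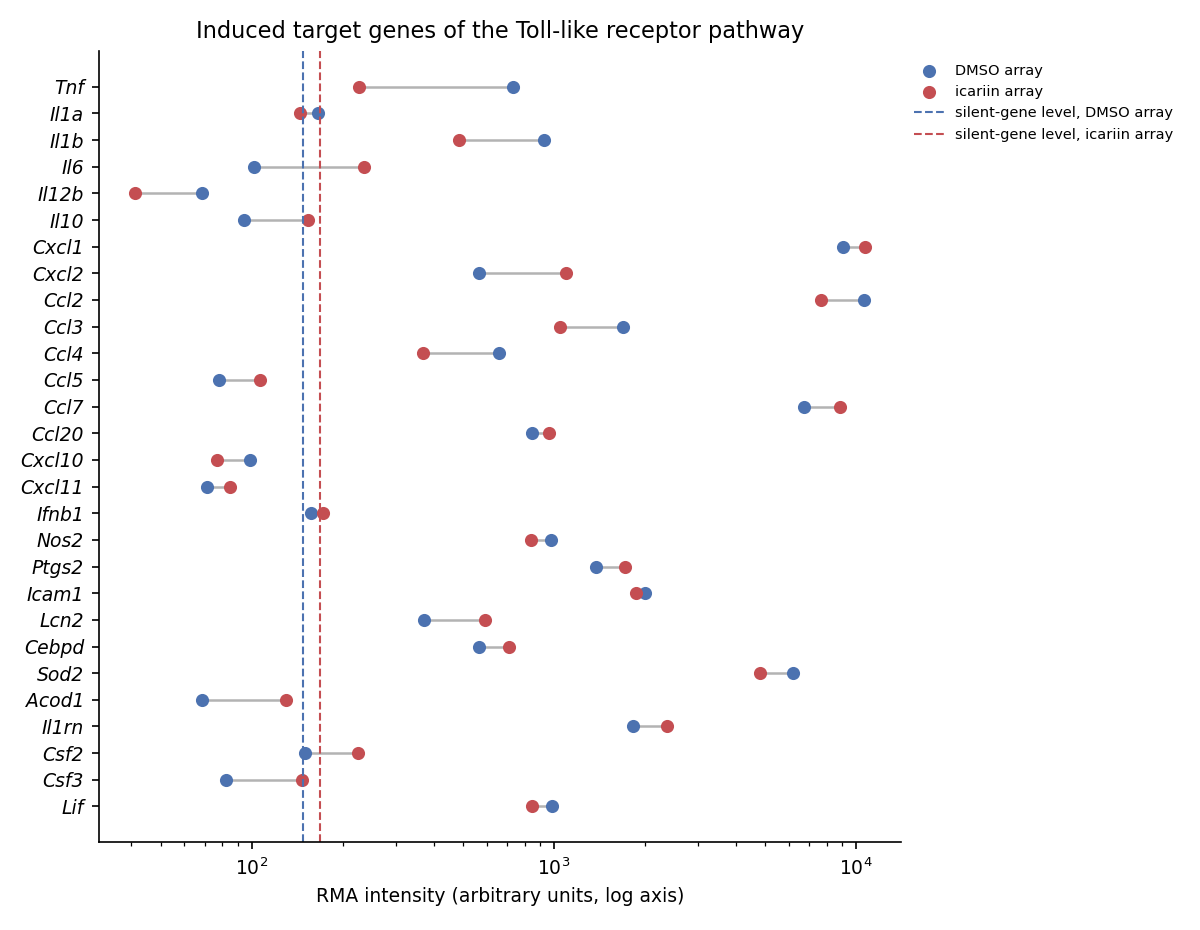
RMA intensity (log axis) of 28 genes known to be induced by the receptors with DMSO (blue) and icariin (red), with the silent-gene level of each array as a dashed line. Tnf, Il1b, Ccl3 and Ccl4 have the higher value on the DMSO array, and Cxcl2 and Il6 on the icariin array.

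Markers of macrophages, cells that carry Tlr2 and Cd14, also differed between the arrays. The 16 measured macrophage markers had a median log2 difference of 1.36, and 15 had a higher value on the icariin array. Of the 16, 11 passed 2-fold upward and none downward, beside 6.51% and 7.01% of all genes. The list was drawn up with earlier results of these arrays known, so its count is no independent evidence of direction. Their summed intensity was 5674 with DMSO and 19437 with icariin. Lyz2 (318 and 2727), Cd68 (1423 and 5597) and C1qa (222 and 1373) were among those above the silent-gene level on both arrays, as were 9 of the 16, while Cd163 and Marco lay under it on both. The log2 difference of Tlr2 (1.33) was near the median of these markers, and that of Cd14 (0.29) was lower than that of 14 of the 16. Of 12 leukocyte markers, 6 passed 2-fold upward and none downward (median 1.01), and the summed intensity was 2339 and 4789. The part of such cells in the difference of Tlr2 was not tested. More cells of a type and more RNA per cell cannot be told apart in these bulk samples.

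Markers of other cells had medians nearer to 0. The counts below stand beside 6.51% of all genes that passed 2-fold upward and 7.01% downward. The marrow stroma markers had a median log2 difference of 0.21, and none of the 15 differed 2-fold. Of 10 neutrophil markers, 1 passed 2-fold upward and 2 downward, and 7 lay under the silent-gene level on both arrays. Of 8 B cell markers, 1 passed 2-fold upward and 2 downward, and 4 (Ms4a1, Cd79b, Pax5 and Cr2) lay under that level on both arrays. Among 11 markers of T and NK cells, 8 lay under the level on both arrays. The 1 that passed 2-fold upward, Cd247 (237 and 733, 3.09-fold), was the only one above the level on both. Of 8 endothelial markers, 1 passed 2-fold downward, namely Pecam1 (269 and 52.8).

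**Figure D5:**
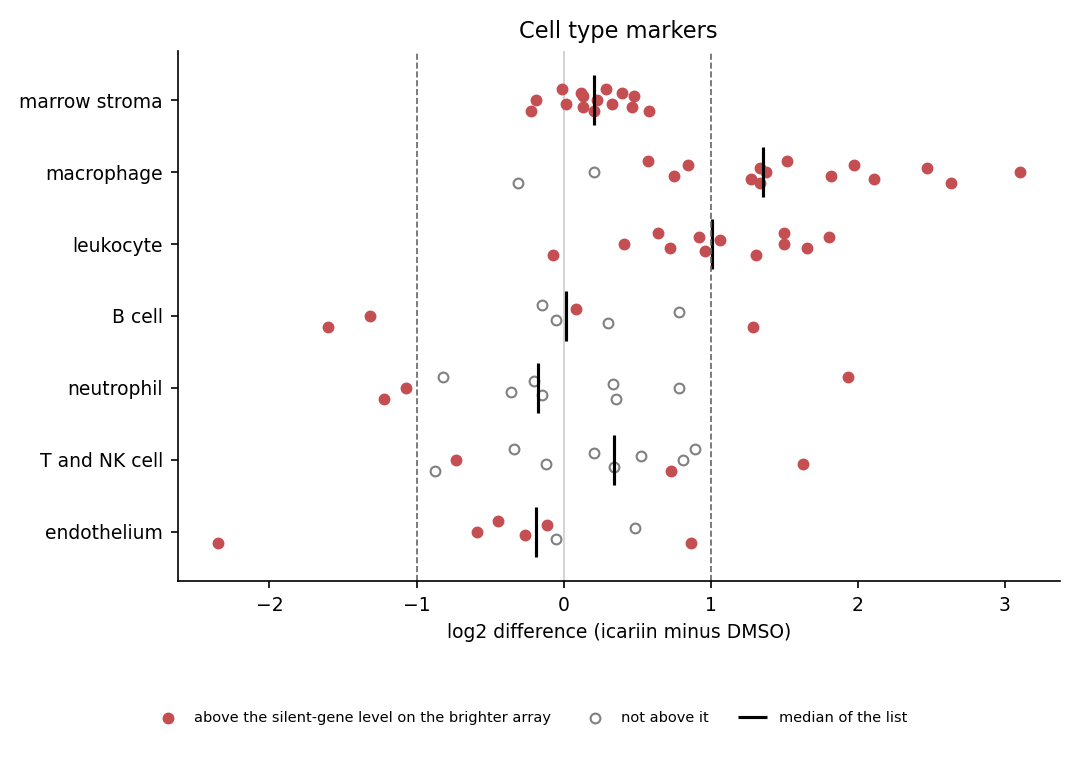
Log2 difference (icariin minus DMSO) of each measured marker gene by cell type, 1 point per gene, filled where the gene lay above the silent-gene level on the array where it was brighter, with list medians as black bars and dashed lines at 2-fold. The macrophage and leukocyte medians, 1.36 and 1.01, are the ones past 2-fold.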

How the data were processed

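Cy3-labelled cDNA of 1 DMSO-treated and 1 icariin-treated BMSC sample was hybridised to NimbleGen rat arrays. The deposited intensity values had been quantile normalized and summarised with RMA in NimbleScan by the authors, on a linear scale, and the NimbleScan version is not given in the sources used here. Quantile normalization hides a change of all transcripts in 1 direction. Depth does not apply to arrays, and precision is limited by 1 array per group. The value table of the series holds 20045 of the 26419 sequences, 8 of the 10 studied here among them, and the shared values differ by 0.0288 at most.

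Sequences were named by gene identifier (20681) or transcript accession (31) through the RefSeq table of GRCr8, used for names, neighbours and promoters, and 5707 kept the symbol of the file. The 1956 genes covered by several sequences took the mean of their log2 values, and the log2 difference is icariin minus DMSO. The call was 2-fold, since the methods filter on fold change, and no test was made. Values below the floor of 168 were raised to it for ratios given as "at least". The calling step was run on simulated data with a known change set larger than the 2-fold call. That run checks the code and not how reliable the call is on these arrays. Python 3.11.15, pandas 2.3.3 and statsmodels 0.14.6 were used.

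The genes studied and all lists were chosen with earlier results of these data known. Named pathway genes were those at least 2-fold different above the silent-gene level on the brighter array, up to 3 others per list with the largest difference above it on both arrays, and Myd88, Ticam1, Unc93b1, Lbp, Cd180, Ly86, Tnf, Il1b, Il6 and Nfkbia. Tlr8, Tlr10, Tlr11, Tlr12, Hsp90b1, Map2k6, Tbk1, Ccl3, Ccl5, Cxcl10, Ifnb1 and single markers were named after their values were seen. The promoter motifs were chosen after the windows could be seen. Alternatives were the value table, a loess of the difference on level (span 0.3), centring, the brightest sequence, 64 added to both values, the floor, folds of 1.5 and 3, and filters on 3 versions of the silent-gene level.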

Additional observations from a re-analysis of the deposited data

How the results depend on the processing

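The log2 difference of Tlr2, 1.33, ranged from 1.15 to 1.41 over loess, centring and 64 added, and stayed past 2-fold. The other alternatives could not move it, since Tlr2 has 1 sequence with the same values in the value table and lies above the floor on both arrays. The count of receptor and co-receptor genes at least 2-fold higher was 1 in the main setting and under all alternatives but a fold of 1.5, which gave 2 (Tlr4 being the other, under the silent-gene level), and a fold of 3, which gave 0. The median log2 difference of these genes, 0.15, was 0.22 with the value table, 0.12 with loess, 0.20 with centring, 0.17 with the brightest sequence, 0.099 with 64 added, 0 with the floor, and 0.81 with each of the 4 filters on the silent-gene level, which leave Tlr2 and Cd14.

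For the pathway genes, the 7 at least 2-fold higher became 4 with 64 added, 2 with the floor, 22 at 1.5-fold, 1 at 3-fold, 2 when both arrays had to be above the silent-gene level and 4 with taste receptor, keratin-associated, beta-defensin and trace amine receptor genes as the silent class. The 6 at least 2-fold lower became 3 with 64 added, 3 with the floor, 20 at 1.5-fold, 1 at 3-fold, 2 when both arrays had to be above the level, 3 with the 99th percentile and 3 with the other silent class. With a fold of 1.5, 16.4% of all genes passed upward and 17.8% downward, and with a fold of 3 these shares were 1.47% and 1.62%. The filter on both arrays kept 63 of the 106 pathway genes. Among all genes kept by it, 2.96% passed 2-fold upward and 4.4% downward. No share of all genes is given for 64 added, the floor, the 99th percentile or the other silent class. Whether the smaller counts there are particular to the pathway genes was therefore not tested. Values under the silent-gene level, as for 7 of the 9 receptor and co-receptor genes, cannot be told from those of silent genes, whatever their difference. No paired analysis was possible because each group held 1 array.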
